A study of Mus musculus with 12 samples.

Results

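The genes described here are the hepcidin axis and the main carriers of iron in mouse liver. They are 10 listed genes of the 55401 in the deposited gene table, chosen by symbol and not by any measured value: Hamp, Hamp2, Bmp6, Id1, Tfrc, Tfr2, Trf, Fth1, Ftl1 and Slc40a1. All 10 were found and all 10 passed the filter on low counts, which kept 19014 genes. Bulk RNA of whole liver was sequenced in 4 groups of C57BL/6 mice labelled male and 8 to 10 weeks old. LKO-ALD (3 libraries) and FLOX-ALD (3 libraries) had the NIAAA diet, used as a mouse model of alcoholic liver injury, while LKO-NC (2 libraries) and FLOX-NC (3 libraries) had the control treatment. FLOX mice carried LPCAT3flox/flox, and LKO mice carried LPCAT3flox/flox-cre, so all groups share the floxed alleles and the Cre groups add the transgene. The labels do not name the promoter that drives cre, no Cre mouse without the floxed gene is among the groups, and 11 of 12 labelled samples were used, since the LKO-NC sample numbered 3 was not. The labels do not say whether replicates were separate animals, so the spread behind each p-value may be technical. The series asked about the role of LPCAT3, a phospholipid acyltransferase, in alcoholic liver injury.

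The liver sets the iron level of the whole body through hepcidin, a peptide hormone that hepatocytes secrete and that makes cells degrade ferroportin, the only known iron exporter of mammalian cells. Hepcidin transcription rises when endothelial BMP6 signals through SMAD proteins as iron accumulates, and when interleukin 6 signals through STAT3 in inflammation; ethanol feeding is known in rodents to lower it. Iron enters cells as transferrin bound to its receptor and is stored in ferritin, and iron regulatory proteins tune both steps by binding hairpins in the mRNAs.

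Levels are counts per 1e6 scaled by trimmed mean of M-values (CPM), and totals ran from 39.1 to 73.6 in units of 1e6 estimated counts per library. All 14 hepatocyte markers, which define the tissue, exceeded 1 CPM on average. The targeted gene Lpcat3 had 9.80 to 15.4 CPM in LKO-ALD, 30.5 to 43.2 in FLOX-ALD, 29.2 to 37.2 in LKO-NC and 87.1 to 103 in FLOX-NC, and its genotype main effect was -1.59 (edgeR adjusted p = 0.00996) on the log2 scale. FLOX-ALD replicate 1 went against its label of male: it had 772 CPM of Xist and 0 CPM over 4 Y-linked genes, whereas the other 10 libraries had at most 2.95 CPM of Xist and at least 135 CPM over the Y-linked genes. FLOX-ALD replicate 2 had the lowest summed level of the 21 genes of the IL6 and STAT3 list. That list holds receptors and kinases of the pathway, such as Il6ra and Jak1, besides acute phase genes. The same library had the highest summed erythroid markers, at 485 CPM against 90.2 to 324 CPM elsewhere. Mitochondrial transcripts took 22.3% to 26.4% of counts in FLOX-ALD replicates 2 and 3 and LKO-NC replicate 1, and 12.1% to 15.4% in the other libraries.

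The sequences below show why the 2 hepcidin genes are read side by side and which genes carry an iron-responsive hairpin. Hamp (ENSMUSG00000050440, chromosome 7, 30942368 to 30944032, - strand) and Hamp2 (ENSMUSG00000056978, chromosome 7, 30922372 to 30924681, - strand) are neighbouring copies on mm10. The 250 bases before each RefSeq start on GRCm38.p6, the assembly of mm10, lie at chr7:30944030-30944279 for Hamp and chr7:30924182-30924431 for Hamp2, both on the - strand. The other genes lie, on mm10, as follows: Bmp6 on chromosome 13 (38345107 to 38500302, + strand), Id1 on chromosome 2 (152736251 to 152737410, + strand), Tfrc on chromosome 16 (32608920 to 32632794, + strand), Tfr2 on chromosome 5 (137569840 to 137587481, + strand), Trf on chromosome 9 (103204001 to 103230444, - strand), Fth1 on chromosome 19 (9980598 to 9985098, + strand), Ftl1 on chromosome 7 (45457944 to 45459884, - strand) and Slc40a1 on chromosome 1 (45908068 to 45926523, - strand). Capitals mark the BMP response element core GGCGCC, or the letters aligned with it, and the STAT site TTCNNNGAA.
Hamp: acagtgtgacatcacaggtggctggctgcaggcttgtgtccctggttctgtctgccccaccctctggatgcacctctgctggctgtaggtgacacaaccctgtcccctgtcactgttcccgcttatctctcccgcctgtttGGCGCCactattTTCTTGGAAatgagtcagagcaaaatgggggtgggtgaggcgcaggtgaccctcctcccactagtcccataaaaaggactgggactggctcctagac
Hamp2: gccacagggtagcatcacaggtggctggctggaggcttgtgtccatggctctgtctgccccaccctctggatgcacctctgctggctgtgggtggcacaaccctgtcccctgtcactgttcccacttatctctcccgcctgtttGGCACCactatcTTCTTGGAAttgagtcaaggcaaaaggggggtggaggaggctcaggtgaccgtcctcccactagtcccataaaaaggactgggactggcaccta
Over 247 aligned positions, 227 (91.9%) were identical. Counted from 1 at the 5′ end of the Hamp window, the substitution G145A fell inside the BMP core, so the letters GGCGCC were in the Hamp window only, at -109 to -104 from the start. The STAT site had 0 substitutions and stood at -97 to -89 in Hamp and at -94 to -86 in Hamp2. Searched on both strands of 32851 promoter windows of this length, GGCGCC occurred in 9.59%, TTCNNNGAA in 7.02% and both in 0.368%; in the Hamp window the 2 motifs did not overlap. A window was at hand for 7 of the 10 genes, and apart from the hepcidins only 1 of the 2 windows of Tfrc held GGCGCC and none held the STAT site. Id1, Trf and Slc40a1 had no entry.

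The iron-responsive hairpins come from the mm10 annotation, as 30 bases each with the loop CAGTGN in capitals. Tfrc held 4 in its 3′ UTR, at chr16:32631219-32631248, chr16:32631598-32631627, chr16:32631663-32631692 and chr16:32631710-32631739 on the + strand. Fth1 (chr19:9982732-9982761, + strand), Ftl1 (chr7:45459778-45459807, - strand) and Slc40a1 (chr1:45925464-45925493, - strand) held 1 each in the 5′ UTR.
Tfrc hairpin 1: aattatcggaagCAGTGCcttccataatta
Tfrc hairpin 2: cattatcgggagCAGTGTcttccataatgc
Tfrc hairpin 3: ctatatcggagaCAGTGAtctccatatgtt
Tfrc hairpin 4: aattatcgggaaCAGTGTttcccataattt
Fth1 hairpin: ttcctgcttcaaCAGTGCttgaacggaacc
Ftl1 hairpin: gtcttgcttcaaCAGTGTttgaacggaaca
Slc40a1 hairpin: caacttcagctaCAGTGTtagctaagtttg
The search asked for an unpaired C, 5 bases, the loop CAGTGN and 5 bases paired with the first 5. It matched 294 of 21901 protein-coding genes (1.34%), among them these 4 of the 10. A match describes letters and not a site in use.

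None of the 10 genes passed the threshold in any of 7 contrasts, by edgeR's quasi-likelihood test with Benjamini-Hochberg adjustment over all 19014 genes at 0.05. Of the 70 values, 6 had an unadjusted p under 0.05, where 12.2% of all gene values over the 7 contrasts did; DESeq2 called 2 and limma voom called 0. The share of all genes called was 0.957% for LKO-ALD against LKO-NC, 0.221% for FLOX-ALD against FLOX-NC, 0.0105% for LKO-NC against FLOX-NC, 0.00526% for the interaction of feeding and genotype, 4.61% for the feeding main effect and 0.0158% for the genotype main effect. LKO-ALD against FLOX-ALD called 0.0% of genes, with 1531 genes at an unadjusted p under 0.05 and 124 called by DESeq2. At these shares, 0 of 10 is near the background in each contrast. Libraries of 2 groups did not overlap for 2 members higher and 3 lower in LKO-ALD against LKO-NC (20.1% and 19.6% of all genes), for 1 higher and 0 lower in FLOX-ALD against FLOX-NC (9.42% and 9.96%), for 0 higher and 1 lower in LKO-NC against FLOX-NC (15.1% and 13.9%), and for 0 higher and 1 lower in LKO-ALD against FLOX-ALD (6.35% and 6.26%). The main effects are means of the 2 within-genotype or within-feeding differences.

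**Figure D1:**
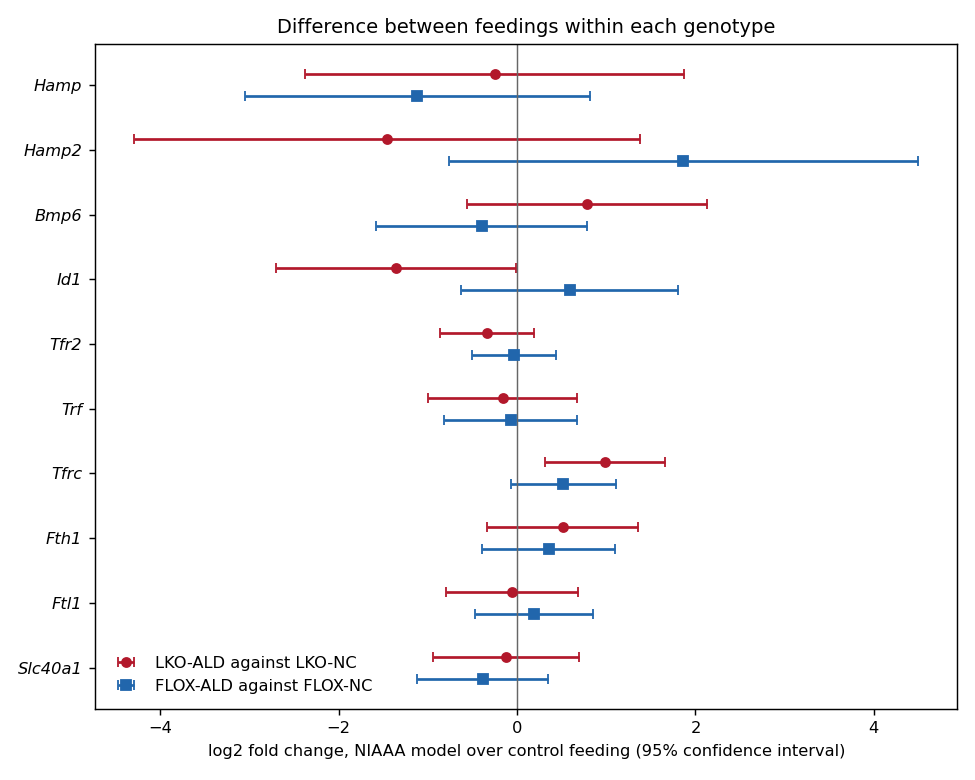
The log2 fold change of the NIAAA model over control feeding is plotted for each of the 10 genes with its 95% confidence interval, in LKO livers (circles) and FLOX livers (squares). The hepcidin intervals are the widest, spanning -2.37 to 1.87 for Hamp in LKO livers, and of the 20 intervals those of Tfrc and Id1 in LKO livers lie to 1 side of 0.

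Hamp, which encodes hepcidin, was abundant and scattered. It had 199, 139 and 471 CPM in LKO-ALD and 194, 14.1 and 305 CPM in FLOX-ALD, against 207 and 436 in LKO-NC and 298, 393 and 421 CPM in FLOX-NC. The NIAAA livers had a median of 197 CPM and the control livers 393 CPM, but the ranges overlapped in both genotypes, and the highest of all 11 libraries was an NIAAA liver. The feeding main effect was a log2 fold change of -0.68 (SE 0.63, 95% interval -2.11 to 0.74; edgeR adjusted p = 0.573), below 0 but within the spread between libraries. With 1 library left out it lay between -1.04 and -0.36, at -0.36 without LKO-NC replicate 2, and it was -1.18 on log2 FPKM plus 0.1. Within genotypes it was -0.25 (SE 0.94) in LKO livers and -1.12 (SE 0.86) in FLOX livers.

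Single libraries moved the FLOX difference. The log2 fold change of Hamp for FLOX-ALD against FLOX-NC was -0.58 without FLOX-ALD replicate 2 and -1.79 without FLOX-ALD replicate 3 (edgeR adjusted p = 0.658 and 0.441). FLOX-ALD replicate 2, with the lowest Hamp at 14.1 CPM where the other 10 had 139 to 471 CPM, also had the lowest Saa1, a serum amyloid A of the acute phase, at 26.0 CPM against 61.5 to 10772 CPM. Its Socs3, a STAT3 target, was 5.95 CPM against 14.4 to 131 CPM. Saa1 and Socs3 were picked after their values were seen. Of the other response genes of that list, Saa2, Fgl1 (222 CPM, 653 to 2890 elsewhere), Fgb (2111, 4739 to 21286), Steap4 and Hpx were lowest there too. Lcn2 (28.4 CPM, 11.5 to 4027 elsewhere), Crp (207, 141 to 566) and Hp (4073, 4045 to 22119) were not. Neither were Lbp, Orm1, Orm2, Itih3 and Socs1. Genes tied to BMP and SMAD went both ways. Id2 (48.5 CPM against 98.4 to 221), Id3 (11.6 against 16.3 to 69.2), Smad1, Bmpr1a and Furin were lowest there too. Bambi (6.84 CPM against 1.25 to 3.69), Hjv (112 against 25.5 to 106), Bmp7, Eng and Rgmb were highest there. Id1 (3.67 CPM, 3.42 to 20.6 elsewhere), Smad6 (3.71, 1.80 to 4.54), Smad7 (3.90, 3.40 to 7.21) and Atoh8 (16.5, 10.3 to 23.0) were neither. Iron storage genes were at the other end: Fth1 had 2077 CPM and Ftl1 3044 CPM there, above every other library. The summed erythroid markers and the mitochondrial share were high in it too. Its summed hepatocyte markers were the lowest, at 85653 CPM against 96395 to 164334 CPM elsewhere. Its summed stellate markers were the highest, at 466 CPM against 158 to 367 CPM. The part of these traits in the values above was not tested.

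**Figure D2:**
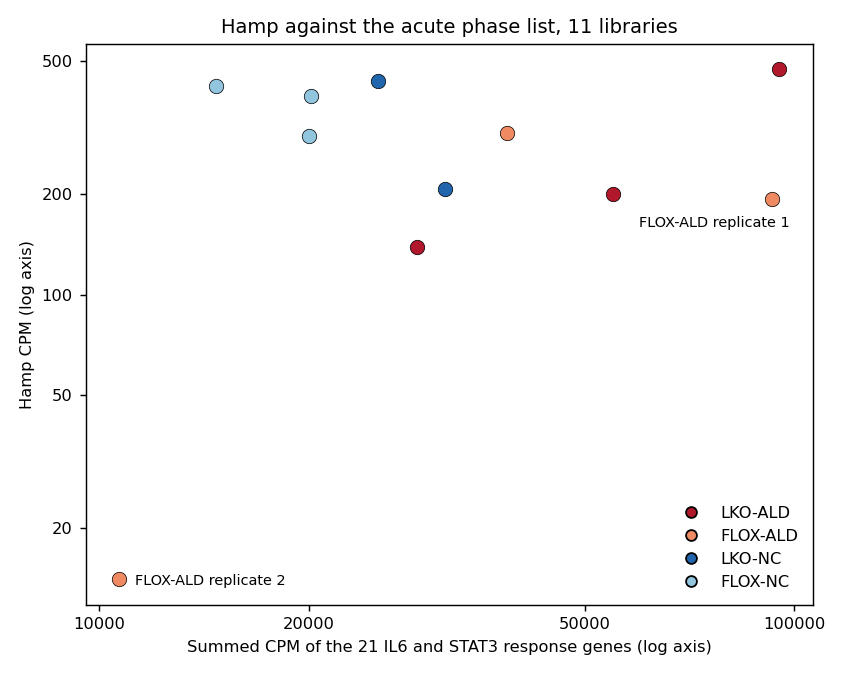
Each point is 1 of 11 libraries, coloured by group, on log axes. The x axis is the summed CPM of the 21 genes of the IL6 and STAT3 list, labelled response genes but with receptors and kinases included. The y axis is the CPM of Hamp. FLOX-ALD replicate 2 sits alone at the lower left, at 10660 and 14.1 CPM, while the other 10 libraries spread between 139 and 471 CPM of Hamp across summed levels of 14707 to 95165 CPM.

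Across the other 10 libraries, Hamp did not follow the sum of the IL6 and STAT3 list in a simple order. Abundant genes weigh most in that sum: in FLOX-NC replicate 3, Fgb had 4739 CPM and Hp 4045 CPM. LKO-ALD replicate 3, with a summed list level of 95165 CPM, had the highest Hamp, and FLOX-NC replicate 3, with 14707 CPM, had the third highest. Over all 11 libraries Pearson's r of log2 Hamp and log2 Socs3 was 0.45 and Spearman's rho 0.02 (permutation p = 0.171 and 0.968, adjusted over 7 relations 0.299 and 0.968). Without the 2 libraries farthest from the median Hamp, FLOX-ALD replicate 2 and LKO-ALD replicate 2, r was -0.50. With each group's mean subtracted, r of Hamp and Socs3 was 0.82 over 11 libraries and -0.0098 without FLOX-ALD replicate 2. The latter was added after the data were seen, and the within-group value rested on that library. Over 11 libraries, r of Hamp was -0.13 with Bmp6, 0.28 with Id1, 0.27 with Hamp2 and -0.62 with Fth1. Without the 2 libraries farthest from the median Hamp, these were 0.67, -0.13, -0.32 and -0.02. Tfrc and Fth1 had r 0.48 and rho 0.66. For these relations the adjusted permutation p was at least 0.192 for r and 0.215 for rho.

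Hamp2, the second hepcidin gene of the mouse, had a high value in 1 library. It had 4.29, 5.91 and 10.1 CPM in LKO-ALD and 184, 5.49 and 13.8 CPM in FLOX-ALD, against 24.9 and 12.4 in LKO-NC and 17.7, 11.98 and 26.0 CPM in FLOX-NC. The 184 CPM belonged to FLOX-ALD replicate 1, the library with female transcripts, whose 17 female-biased liver genes summed to 7668 CPM against at most 169 CPM elsewhere. On the FPKM scale, which is per length, Hamp2 and Hamp had levels of 336 and 364 FPKM in that library, whereas in the other 10 Hamp2 had 8.50 to 53.6 FPKM and Hamp 28.9 to 943 FPKM. LKO-ALD lay wholly below LKO-NC, as did 19.6% of all genes; the log2 fold change was -1.46 (SE 1.23; edgeR adjusted p = 0.57), and -0.87 without LKO-NC replicate 1.

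The comparison of NIAAA livers for Hamp2 turned on that library. LKO-ALD against FLOX-ALD gave a log2 fold change of -3.32 (SE 1.21, 95% interval -6.11 to -0.53; edgeR adjusted p = 0.576), and -0.49 without FLOX-ALD replicate 1 (edgeR adjusted p = 0.775). FLOX-ALD against FLOX-NC gave 1.87 with it (edgeR adjusted p = 0.55) and -0.95 without it (edgeR adjusted p = 0.507). The feeding main effect of Hamp2 was 0.20 with all libraries and -1.202 without FLOX-ALD replicate 1 (edgeR adjusted p = 0.92 and 0.0871). The labels do not say how reads shared by these similar copies were assigned, so the split between the genes is uncertain. With the counts of Hamp and Hamp2 summed, the log2 fold change of Hamp was -0.30 for LKO-ALD against LKO-NC and -0.71 for FLOX-ALD against FLOX-NC.

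**Figure D3:**
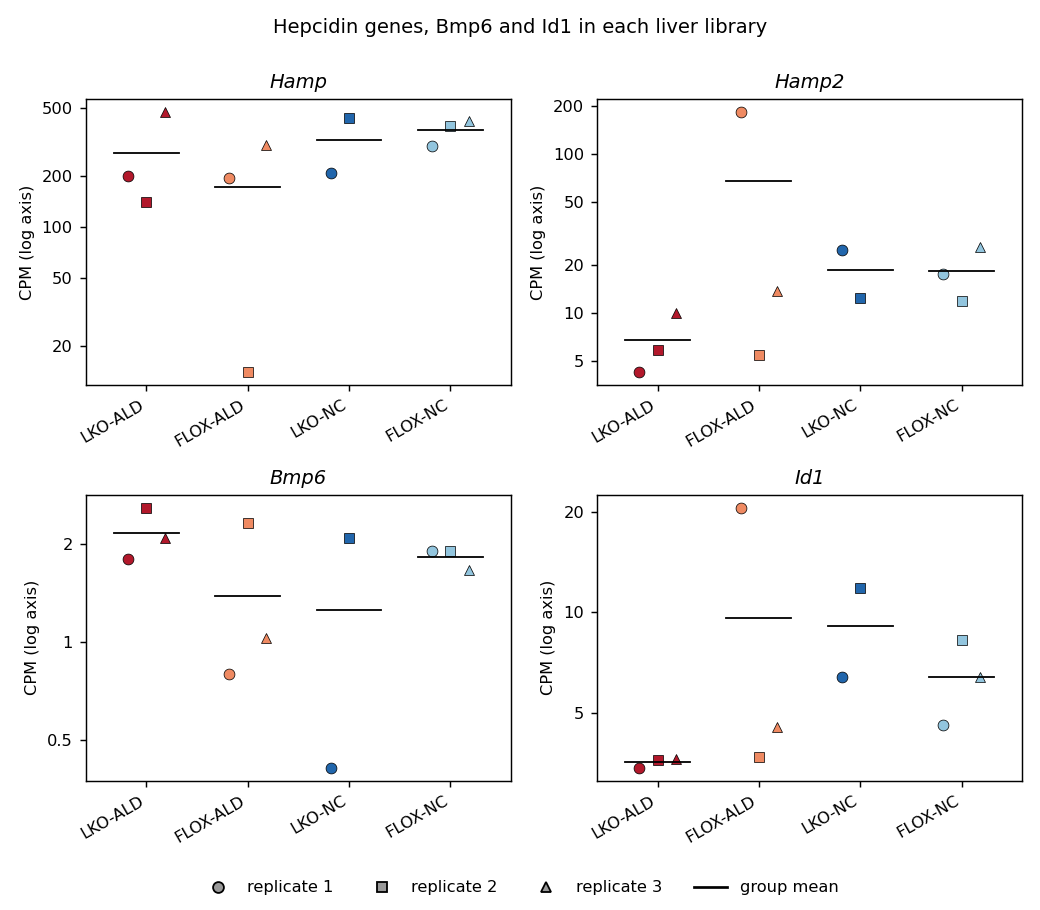
CPM of Hamp, Hamp2, Bmp6 and Id1 in each library on log axes, by group, with marker shape for the replicate and a line at the group mean. Hamp drops to 14.1 CPM in FLOX-ALD replicate 2, Hamp2 and Id1 peak in FLOX-ALD replicate 1 at 184 and 20.6 CPM, and the 3 Id1 values of LKO-ALD lie between 3.42 and 3.62 CPM.

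Bmp6 encodes the ligand that reports liver iron to hepatocytes and is made mainly by sinusoidal endothelial cells. It was low, with 19 to 159 counts per library. Its level was 1.80, 2.57 and 2.08 CPM in LKO-ALD and 0.80, 2.32 and 1.03 CPM in FLOX-ALD, against 0.41 and 2.09 in LKO-NC and 1.90, 1.90 and 1.66 CPM in FLOX-NC. The groups overlapped in all 4 pairwise comparisons. The log2 fold change was 0.78 (SE 0.62) in LKO livers and -0.40 (SE 0.54) in FLOX livers (edgeR adjusted p = 0.529 and 0.822). The LKO value of Bmp6 rested on the control pair: it was 0.045 without LKO-NC replicate 1, which had 19 counts, and 2.39 without LKO-NC replicate 2 (edgeR adjusted p = 0.996 and 0.124). The FLOX value was -0.11 without FLOX-ALD replicate 1, -1.01 without replicate 2 and -0.21 without replicate 3. The 13 sinusoidal endothelial markers summed to 339 to 503 CPM in LKO-ALD and 304 to 463 CPM in FLOX-ALD, against 340 to 406 in LKO-NC and 266 to 300 CPM in FLOX-NC, and their part in the level of Bmp6 was not tested. In bulk liver, fewer cells of a type and less RNA per cell cannot be told apart.

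Id1, a transcriptional inhibitor that BMP and SMAD signalling induces together with hepcidin, was low in all 3 LKO-ALD libraries. It had 3.42, 3.59 and 3.62 CPM in LKO-ALD and 20.6, 3.67 and 4.54 CPM in FLOX-ALD, against 6.39 and 11.8 in LKO-NC and 4.57, 8.24 and 6.37 CPM in FLOX-NC. LKO-ALD lay below every library of the other 3 groups, but narrowly: its highest value was 3.62 CPM and FLOX-ALD replicate 2 had 3.67 CPM. Against LKO-NC alone, 19.6% of all genes lay wholly lower in LKO-ALD. The share that lay below all 3 groups was not counted. LKO-ALD against LKO-NC gave -1.36 (SE 0.61; edgeR adjusted p = 0.25), a fold of 0.389, FLOX-ALD against FLOX-NC gave 0.59 (SE 0.56; edgeR adjusted p = 0.717), and the interaction was -1.95 (SE 0.83, 95% interval -3.77 to -0.13; edgeR adjusted p = 0.526). The LKO value was -0.84 without LKO-NC replicate 2 (edgeR adjusted p = 0.613).

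The FLOX value of Id1 again rested on FLOX-ALD replicate 1. Without it, FLOX-ALD against FLOX-NC was -0.64 and the interaction -0.72 (edgeR adjusted p = 0.503 and 0.595), and the feeding main effect was -0.998 and passed (edgeR adjusted p = 0.0458), whereas with all libraries it was -0.39 (edgeR adjusted p = 0.631). LKO-ALD against FLOX-ALD, in which LKO-ALD was lower without overlap as 6.26% of genes were, was -1.44 with all libraries and -0.20 without that one. Leaving out FLOX-ALD replicate 1, Id1 had 3.42 to 4.54 CPM on the NIAAA model and 4.57 to 11.8 CPM on control feeding. The library left out is the 1 that went against this split, at 20.6 CPM, and the share of all genes split so was not counted. Fits of the feeding main effect without 1 library called 175 to 1448 genes.

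Tfrc encodes transferrin receptor 1, the main entry port of transferrin-bound iron, and its mRNA is stabilised through the 3′ UTR hairpins when iron is short. It was the only 1 of the 10 genes whose NIAAA libraries lay above the control libraries in both genotypes, which 3.35% of all genes did. It had 23.8, 39.3 and 26.0 CPM in LKO-ALD and 25.2, 17.9 and 16.8 CPM in FLOX-ALD, against 11.2 and 18.8 in LKO-NC and 15.4, 11.01 and 15.6 CPM in FLOX-NC. Over both genotypes the feeding difference was 0.75 (SE 0.21, 95% interval 0.30 to 1.197; edgeR adjusted p = 0.059), 1.68-fold, just outside the threshold.

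Within genotypes Tfrc differed by 0.98 (SE 0.31; edgeR adjusted p = 0.12) in LKO livers and 0.52 (SE 0.27; edgeR adjusted p = 0.453) in FLOX livers, or 0.31 in FLOX livers without FLOX-ALD replicate 1, and the interaction was 0.47 (SE 0.41; edgeR adjusted p = 0.734). DESeq2 called the feeding main effect of Tfrc (adjusted p = 0.0147) and its LKO difference (adjusted p = 0.0477), and edgeR called the main effect without the filter on low counts (adjusted p = 0.0376) and without FLOX-ALD replicate 3 (adjusted p = 0.0414). Over the 20 alternatives the main effect stayed between 0.52 and 0.97 and its adjusted p between 0.0147 and 0.226.

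The reads behind Tfrc were assigned mainly to 2 transcripts in proportions that varied from library to library. A retained-intron transcript of 5 exons (ENSMUST00000128285) took 58.5% of all Tfrc counts and the coding transcript of 19 exons (ENSMUST00000023486) took 40.8%, with the coding share running from 14.2% to 99.7%. The retained-intron transcript had 0 counts in FLOX-ALD replicates 2 and 3. Counted on the coding transcript alone, the level was 4.66, 19.2 and 6.30 CPM in LKO-ALD and 3.59, 17.9 and 16.7 CPM in FLOX-ALD, against 1.60 and 14.4 in LKO-NC and 3.08, 4.98 and 3.32 CPM in FLOX-NC. On that count the NIAAA and control libraries overlapped in both genotypes. Assignment between transcripts is an estimate of the authors' counting, and its part in the gene-level difference was not tested.

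**Figure D4:**
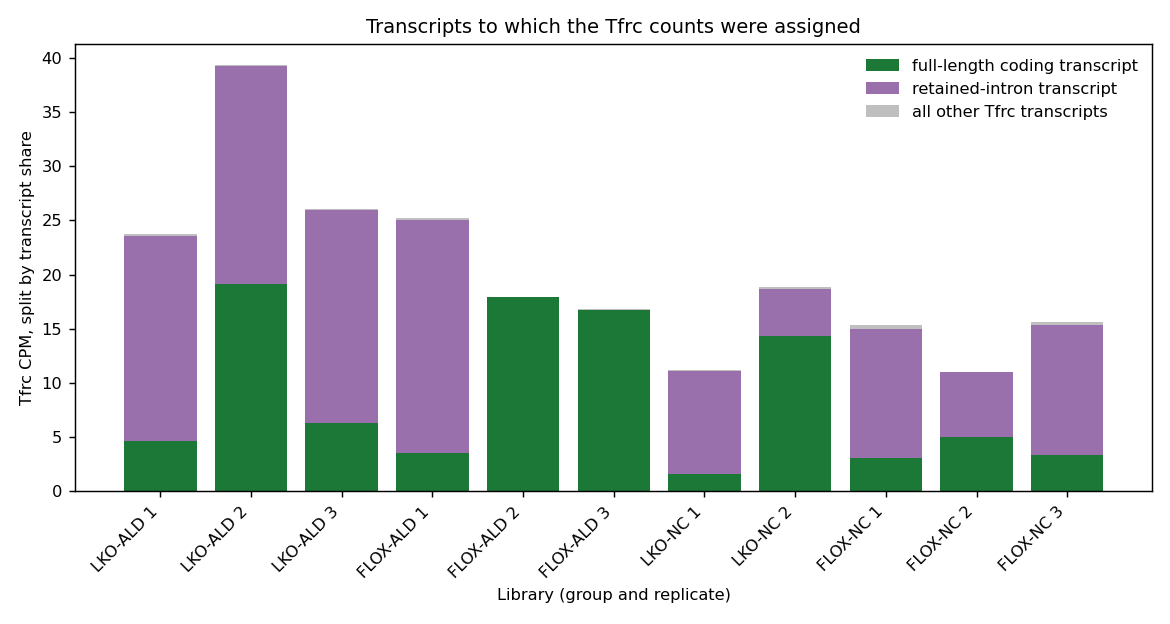
Stacked bars give the CPM of Tfrc in each of the 11 libraries, split by the share assigned to the coding transcript, the retained-intron transcript and all others. The bars of LKO-ALD reach 23.8 to 39.3 CPM and those of the 5 control libraries 11.01 to 18.8 CPM, while the coding part varies from 1.60 to 19.2 CPM.

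The FPKM values, which divide by transcript length, carried this assignment with them. Tfrc had 5.47, 8.77 and 5.71 FPKM in LKO-ALD and 5.32, 3.14 and 2.83 FPKM in FLOX-ALD, against 2.88 and 3.47 FPKM in LKO-NC and 3.44, 2.30 and 3.66 FPKM in FLOX-NC, so that on this scale FLOX-ALD and FLOX-NC overlapped and LKO-ALD and LKO-NC did not.

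Tfr2, transferrin receptor 2, belongs to the hepatocyte complex that senses transferrin saturation upstream of hepcidin. It was the steadiest member, with a within-group SD of 0.20 on the log2 scale against a median of 0.48 over all genes tested. It had 223, 231 and 178 CPM in LKO-ALD and 301, 210 and 289 CPM in FLOX-ALD, against 247 and 285 in LKO-NC and 293, 269 and 257 CPM in FLOX-NC. LKO-ALD lay below LKO-NC without overlap, as did 19.6% of all genes, at a log2 fold change of -0.34 (SE 0.24; edgeR adjusted p = 0.477), and FLOX livers differed by -0.04 (SE 0.22). The interval of the feeding main effect ran from -0.54 to 0.17.

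Trf, transferrin, the plasma carrier of iron, had the highest mean level on the FPKM scale. It had 4844, 6353 and 5183 CPM in LKO-ALD and 11252, 6088 and 5058 CPM in FLOX-ALD, against 4999 and 7199 in LKO-NC and 9302, 7524 and 6741 CPM in FLOX-NC. The groups overlapped in all 4 pairwise comparisons, and FLOX-ALD replicate 1 was highest. The feeding difference was -0.16 (SE 0.38) in LKO livers and -0.07 (SE 0.35) in FLOX livers, and -0.50 in FLOX livers without that library (edgeR adjusted p = 0.573).

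Fth1 and Ftl1 encode the heavy and light subunits of ferritin, the iron store whose translation the 5′ UTR hairpins restrain. Fth1 had 1530, 1241 and 1299 CPM in LKO-ALD and 1364, 2077 and 735 CPM in FLOX-ALD, against 741 and 1162 in LKO-NC and 1149, 1004 and 1114 CPM in FLOX-NC. LKO-ALD lay above LKO-NC without overlap, as did 20.1% of all genes, at 0.51 (SE 0.39; edgeR adjusted p = 0.512), or 0.22 without LKO-NC replicate 1 and 0.88 without LKO-NC replicate 2. FLOX livers differed by 0.35 (SE 0.34; edgeR adjusted p = 0.727), or by -0.06 without FLOX-ALD replicate 2. Fth1 counts were mostly assigned to a retained-intron transcript (69.0% of all), with a share of 19.6% to 77.0% by library.

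Ftl1 did not separate feedings. It had 1924, 1960 and 1468 CPM in LKO-ALD and 1687, 3044 and 1469 CPM in FLOX-ALD, against 1664 and 2039 in LKO-NC and 1824, 1701 and 1917 CPM in FLOX-NC. The log2 fold change was -0.05 (SE 0.34) in LKO livers and 0.19 (SE 0.31) in FLOX livers (edgeR adjusted p = 0.953 and 0.856). The 2 ferritin genes were high together in FLOX-ALD replicate 2: r over 11 libraries was 0.72 and rho 0.48 (permutation p = 0.0138 and 0.139, adjusted over 7 relations 0.0965 and 0.407), and r was 0.18 without FLOX-ALD replicates 2 and 3. With group means subtracted, r of Fth1 and Ftl1 was 0.84, and 0.61 without FLOX-ALD replicate 2.

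Slc40a1 encodes ferroportin, the exporter that hepcidin removes from the cell surface, and in liver it is strong in Kupffer cells, which recycle iron from red cells. It had 53.6, 79.4 and 24.0 CPM in LKO-ALD and 59.1, 73.3 and 45.9 CPM in FLOX-ALD, against 57.7 and 56.4 in LKO-NC and 88.2, 75.8 and 69.2 CPM in FLOX-NC. Its feeding differences were -0.12 (SE 0.38) in LKO livers and -0.39 (SE 0.34) in FLOX livers, or -0.21 in FLOX livers without FLOX-ALD replicate 3, and both pairs overlapped. On control feeding, LKO-NC lay below FLOX-NC without overlap, as 13.9% of genes did, at -0.45 (SE 0.38; edgeR adjusted p = 0.858).

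Kupffer cell markers are given beside it. The 14 genes of that list, none of them at 0 in all libraries, summed to 77.4 to 192 CPM in LKO-ALD against 269 to 472 CPM in LKO-NC. In that contrast 2 of 14 were lower past the threshold, where 0.957% of all genes were called in either direction. In the same contrast 11 of the 14 lay wholly lower, where 19.6% of all genes did. The list summed to 144 to 351 CPM in FLOX-ALD against 157 to 255 CPM in FLOX-NC. The part of Kupffer cell number in the level of Slc40a1 was not tested.

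**Figure D5:**
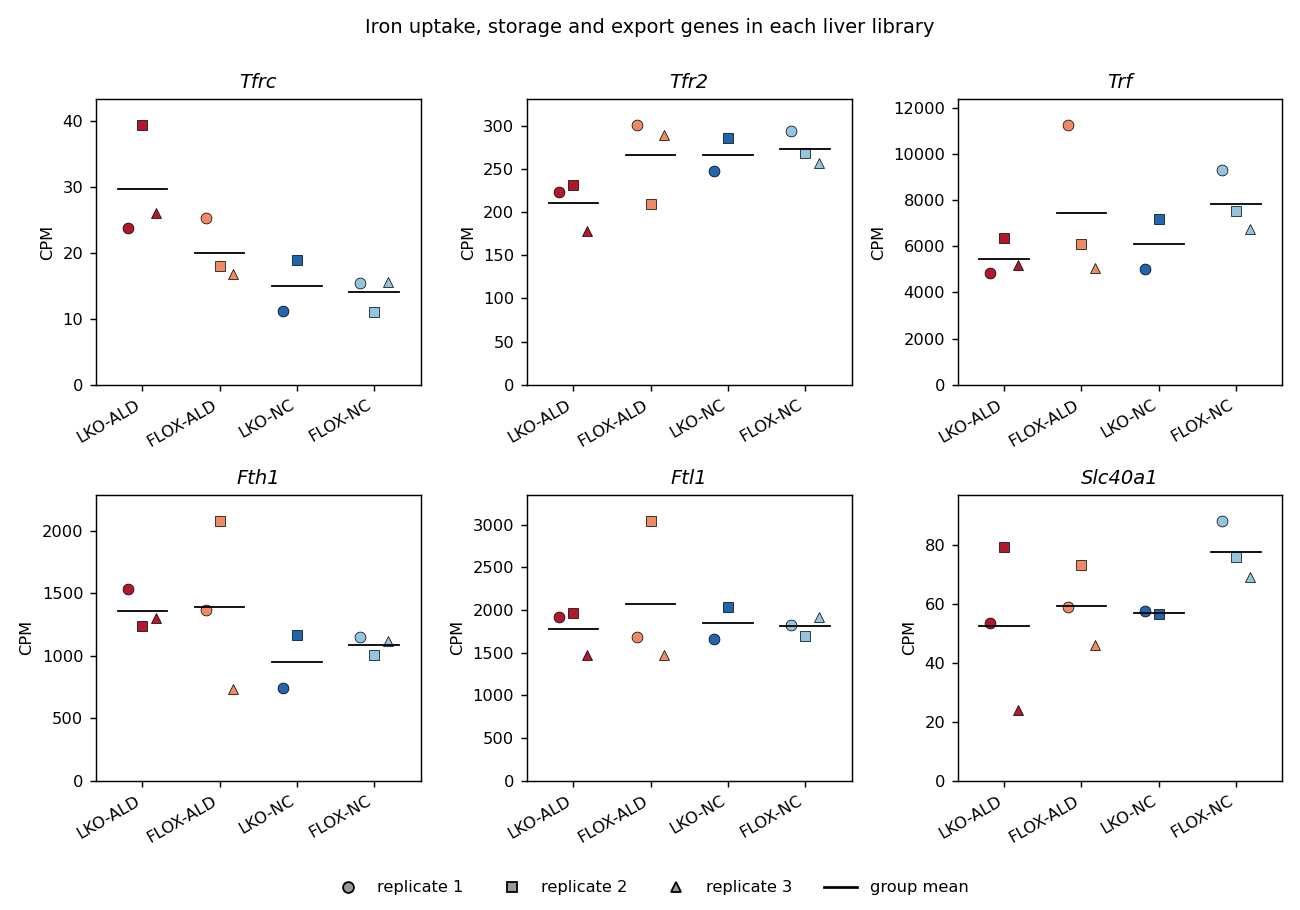
CPM of Tfrc, Tfr2, Trf, Fth1, Ftl1 and Slc40a1 in each library, by group, on axes that start at 0, with marker shape for the replicate and a line at the group mean. Tfrc is higher in both NIAAA groups than in the control groups of the same genotype, FLOX-ALD replicate 2 tops both ferritins, and LKO-ALD replicate 3 has the lowest Slc40a1 at 24.0 CPM.

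Between genotypes on the same feeding, no gene of the 10 passed, and only Id1 (LKO-ALD below FLOX-ALD) and Slc40a1 (LKO-NC below FLOX-NC) separated without overlap. LKO-ALD against FLOX-ALD gave 0.66 (SE 0.85) for Hamp, 0.64 (SE 0.54) for Bmp6 and 0.57 (SE 0.27; edgeR adjusted p = 0.627) for Tfrc. LKO-NC against FLOX-NC gave -0.20 (SE 0.95) for Hamp and 0.10 (SE 0.30) for Tfrc. In LKO-NC against FLOX-NC the 95% interval was -2.35 to 1.94 for Hamp and -0.57 to 0.49 for Tfr2.

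Set on the length-corrected FPKM scale, the levels ran in the order Trf, Ftl1, Fth1, Hamp, Tfr2, Hamp2, Slc40a1, Id1, Tfrc and Bmp6, by the mean over 11 libraries. Those means were 2277, 1656, 684, 567, 87.9, 54.8, 15.5, 5.89, 4.27 and 0.395 FPKM in that order, and that of Hamp2 was 26.6 FPKM without FLOX-ALD replicate 1. Most neighbours overlapped library by library, but Fth1 (382 to 1069 FPKM) stayed below Ftl1 (1257 to 2670 FPKM) and Bmp6 (0.103 to 0.642 FPKM) below Tfrc (2.30 to 8.77 FPKM). The members also differed in how steady they were. Within groups, the SD of log2 CPM was 1.40 for Hamp and 1.49 for Hamp2, larger than in 94.3% and 95.9% of genes tested, then 0.79 for Id1, 0.75 for Bmp6, 0.51 for Slc40a1, 0.45 for Fth1, 0.39 for Trf, 0.37 for Tfrc and 0.34 for Ftl1.

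The genes closest in pattern were found by Pearson's r of log2 CPM over the 11 libraries among 10474 genes (10475 for Bmp6), as a description with no test. They were Pip5k1a (0.96), Frs2 (0.94) and Zfp959 (0.92) for Hamp, Tent5a (0.93), Serpina6 (0.91) and Cp (0.90) for Hamp2, and Rpf1 (0.92), Tmem33 (0.92) and Ankrd13c (0.91) for Bmp6. For Id1 they were Serpina6 (0.87), Psme2 (0.84) and Dhx36 (0.84), for Tfrc Amt (0.93), Nup37 (0.93) and Rnd2 (0.92), and for Slc40a1 Aqp11 (0.95), Kdm1b (0.95) and Mfhas1 (0.95). Serpina6 thus stood near both Hamp2 and Id1, and its r without FLOX-ALD replicate 1 was 0.76 with Hamp2 and 0.70 with Id1. Without that library, r with Hamp2 was 0.78 for Tent5a and 0.85 for Cp. With Id1 it was 0.88 for Psme2 and 0.63 for Dhx36.

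The wider pathway was read through 7 lists with 118 genes tested, covering control of hepcidin by BMP and SMAD, IL6 and STAT3 signalling and response, other iron uptake, other storage and export, iron sensing, heme turnover and iron-sulfur assembly. In 6 of the 7 contrasts 0 of 118 passed, and in the feeding main effect 1 was higher and 1 was lower, where 2.2% and 2.41% of all genes were. The median log2 fold change of the 118 genes in the feeding main effect was 0.16, against 0.04 over all genes tested. The list of BMP and SMAD control had a median of 0.06 over 31 genes tested, and the 21 IL6 and STAT3 genes one of 0.95, with 18 above 0 and 0 past the threshold.

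The 2 genes that passed were Pcbp1 and Fdx1. Pcbp1, the chaperone that delivers iron to ferritin, rose: it had 124, 110 and 150 CPM in LKO-ALD and 127, 114 and 91.3 CPM in FLOX-ALD, against 59.9 and 82.1 in LKO-NC and 85.6, 74.6 and 88.4 CPM in FLOX-NC. Its feeding main effect was 0.63 (SE 0.16; edgeR adjusted p = 0.0451), with no overlap in either genotype, as for 3.35% of all genes. Fdx1, a ferredoxin that passes electrons to mitochondrial enzymes, fell: it had 44.6, 43.3 and 33.5 CPM in LKO-ALD and 28.7, 40.4 and 33.3 CPM in FLOX-ALD, against 38.3 and 59.1 in LKO-NC and 67.5, 60.3 and 87.5 CPM in FLOX-NC. Its feeding main effect was -0.67 (SE 0.17; edgeR adjusted p = 0.0463). Both calls were lost in most fits that left out a single library, with adjusted p up to 0.188 for Pcbp1 and 0.159 for Fdx1, and with the replicate block (adjusted p = 0.0779 and 0.118).

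Among the regulators upstream of hepcidin, Bmp2, a second endothelial BMP ligand, had 22.4, 20.1 and 33.2 CPM in LKO-ALD and 8.50, 25.9 and 12.7 CPM in FLOX-ALD, against 9.51 and 14.99 in LKO-NC and 10.8, 10.1 and 10.6 CPM in FLOX-NC; the feeding main effect was 0.81 (SE 0.27; edgeR adjusted p = 0.0993). Bmp2 passed without FLOX-ALD replicate 1 (0.96; edgeR adjusted p = 0.0498) and with DESeq2 (adjusted p = 0.0443), and its value was 0.51 without FLOX-ALD replicate 2. Hjv, the BMP co-receptor hemojuvelin, had 58.3, 58.8 and 25.5 CPM in LKO-ALD against 106 and 77.6 CPM in LKO-NC, and 57.1, 112 and 77.9 CPM in FLOX-ALD against 59.8, 72.9 and 84.0 CPM in FLOX-NC. The LKO difference of Hjv was -0.95 (SE 0.36; edgeR adjusted p = 0.174). Hfe, which binds transferrin receptor 1, Tmprss6, the protease that cleaves hemojuvelin, and Id2, another target of BMP signalling, had feeding main effects of 0.06, -0.22 and 0.29 (edgeR adjusted p = 0.905, 0.456 and 0.624).

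Smad7 and Smad6 are inhibitory SMADs and targets of the pathway. Smad7 had 4.72, 5.66 and 6.23 CPM in LKO-ALD and 3.50, 3.90 and 6.69 CPM in FLOX-ALD, against 3.40 and 6.98 in LKO-NC and 7.21, 7.17 and 7.18 CPM in FLOX-NC. Smad6 had 2.33, 3.30 and 2.90 CPM in LKO-ALD and 4.54, 3.71 and 2.97 CPM in FLOX-ALD, against 3.23 and 2.71 in LKO-NC and 2.69, 2.85 and 1.80 CPM in FLOX-NC. FLOX-ALD lay below FLOX-NC for Smad7 without overlap, as did 9.96% of all genes (-0.62, SE 0.32; edgeR adjusted p = 0.443). It lay above FLOX-NC for Smad6, as did 9.42% (0.61, SE 0.31; edgeR adjusted p = 0.424). For both genes LKO-ALD and LKO-NC overlapped.

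Further transport and heme genes did not pass by edgeR with all libraries. Slc39a14, a transporter of iron not bound to transferrin, had 557, 342 and 811 CPM in LKO-ALD and 503, 151 and 435 CPM in FLOX-ALD, against 205 and 236 in LKO-NC and 213, 180 and 246 CPM in FLOX-NC, at 1.07 (SE 0.31; edgeR adjusted p = 0.0682). Slc39a14 passed without FLOX-ALD replicate 2 (edgeR adjusted p = 0.0144), without LKO-ALD replicate 2 (edgeR adjusted p = 0.0482) and with DESeq2 (adjusted p = 0.00859). Hmox1, heme oxygenase, which frees iron from heme, had 56.1, 17.6 and 51.2 CPM in LKO-ALD and 41.5, 22.0 and 16.3 CPM in FLOX-ALD, against 19.3 and 17.2 in LKO-NC and 14.1, 11.9 and 5.97 CPM in FLOX-NC, at 1.25 (SE 0.36; edgeR adjusted p = 0.0723). Hmox1 passed without LKO-ALD replicate 2 (edgeR adjusted p = 0.0226), with the replicate block (edgeR adjusted p = 0.0165) and with DESeq2 (adjusted p = 0.00643). Alas1, the first enzyme of heme synthesis, lay lower in the NIAAA libraries of both genotypes, as 3.8% of genes did, at -0.91 (SE 0.25; edgeR adjusted p = 0.0575). Cp, ceruloplasmin, the ferroxidase of plasma, differed by -1.23 (SE 0.50; edgeR adjusted p = 0.205) in LKO livers, with 528, 652 and 694 CPM in LKO-ALD against 1818 and 1104 CPM in LKO-NC. In FLOX livers Cp differed by 0.44 (SE 0.45; edgeR adjusted p = 0.75), with 2346, 461 and 969 CPM in FLOX-ALD against 980, 905 and 909 CPM in FLOX-NC. The feeding main effect was 0.95 for Hp, haptoglobin, which binds free haemoglobin, 0.57 for Hpx, hemopexin, which binds heme, 1.09 for Fgb, a fibrinogen chain of the acute phase, and 0.65 for Blvrb, a biliverdin reductase (edgeR adjusted p = 0.191, 0.509, 0.185 and 0.276).

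Ireb2, iron regulatory protein 2, had 78.5, 67.4 and 105 CPM in LKO-ALD against 55.5 and 65.0 CPM in LKO-NC, and 48.5, 36.3 and 52.1 CPM in FLOX-ALD against 64.6, 72.8 and 77.1 CPM in FLOX-NC. NIAAA libraries were thus all higher in LKO livers, as for 20.1% of all genes, and all lower in FLOX livers, as for 9.96%. The interaction was 1.12 (SE 0.32; edgeR adjusted p = 0.498). Ncoa4, the receptor that carries ferritin to lysosomes, had 35.5, 31.9 and 31.3 CPM in LKO-ALD against 11.6 and 19.995 CPM in LKO-NC, at 1.06 (SE 0.28; edgeR adjusted p = 0.0793; DESeq2 adjusted p = 0.0138), and 24.6, 16.4 and 18.9 CPM in FLOX-ALD against 31.4, 24.7 and 21.1 CPM in FLOX-NC. Aco1, iron regulatory protein 1, had a feeding main effect of -0.22 (SE 0.17; edgeR adjusted p = 0.477), Epas1, a hypoxia-inducible factor whose mRNA carries an iron-responsive hairpin, one of 0.52 and Skp1a, a ubiquitin ligase subunit, one of 0.17 (edgeR adjusted p = 0.133 and 0.681).

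Atf4, a transcription factor of the integrated stress response, rose with the NIAAA model. It had 191, 165 and 357 CPM in LKO-ALD and 240, 177 and 232 CPM in FLOX-ALD, against 114 and 120 in LKO-NC and 113, 100 and 133 CPM in FLOX-NC. Its feeding main effect was 0.97 (SE 0.22; edgeR adjusted p = 0.0292), without overlap in either genotype, as for 3.35% of all genes. It passed in 14 of 20 alternatives (adjusted p up to 0.116) and was 1 of 7 genes on a short list of stress genes tied to iron, of which no other passed. In that effect 2.2% of all genes passed as higher.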

How the data were processed

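Poly(A) RNA of whole liver was sequenced, and estimated counts and FPKM per gene and transcript were deposited by the authors. Per the submitters' processing notes, cutadapt, FastQC, HISAT2, StringTie and edgeR were used with mm10; versions and the strand setting are not given there. The deposited estimated counts were whole numbers, and each of 55401 gene counts equalled the sum of its transcripts. The FPKM values, normalized by the authors to length and depth, served for levels between genes and as an alternative.

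Counts were tested with edgeR 4.0.16 (R 4.3.3) by robust quasi-likelihood after TMM scaling and filterByExpr (minimum count 10, minimum total 15), with 1 mean per group over 11 libraries and Benjamini-Hochberg adjustment over 19014 genes at 0.05. Residual degrees of freedom were 7. The test had been planned for raw counts. DESeq2 1.42.0, limma 3.58.1 and other settings were alternatives, and the script was tested on simulated data. Libraries held 39.1 to 73.6 in units of 1e6 counts.

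The genes and lists were chosen with earlier results of these data known. Named were the 10 genes, 12 fixed neighbours, list members past the threshold or else the 2 most abundant, and the 3 genes most alike in pattern. Promoters came from RefSeq on GRCm38.p6.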

Additional observations from a re-analysis of the deposited data

Results flagged for a closer look

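Ireb2 was flagged because its NIAAA libraries were all above control in LKO livers and all below control in FLOX livers. Taken alone, the first held for 20.1% of all genes and the second for 9.96%. The share of genes with both was not counted. The interaction, which tests this difference, was 1.12 on the log2 scale (SE 0.32; edgeR adjusted p = 0.498), with alternatives between 0.96 and 1.27 and adjusted p-values of at least 0.134, so it did not pass. LKO-ALD against LKO-NC was 0.47 (higher in 3 of 3 libraries) and FLOX-ALD against FLOX-NC was -0.65 (lower in 3 of 3 libraries). The cause was not tested.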

How the results depend on the processing

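The number of genes called depended on the tool and the libraries. For LKO-ALD against LKO-NC it was 182, but 1526 with DESeq2, 404 with no filter, 49 with FPKM plus 0.1, 23 with only the groups compared and 7 with the replicate block, and 6 to 473 with 1 library left out. For FLOX-ALD against FLOX-NC it was 42, but 657 with DESeq2, 128 with no filter, 17 with FPKM plus 0.1, 6 with only the groups compared and 12 with the replicate block, and 2 to 146 with 1 library left out. For LKO-NC against FLOX-NC it was 2, but 60 with DESeq2, 7 with no filter, 0 with voom, 0 with FPKM plus 0.1, 0 with FPKM plus 1 and 5 with only the groups compared, and 1 to 21 with 1 library left out. For LKO-ALD against FLOX-ALD it was 0, but 124 with DESeq2 and 3 with no filter, and 0 to 6 with 1 library left out. For the interaction of feeding and genotype it was 1, but 77 with DESeq2, 0 with upper-quartile scaling, 5 with no filter, 0 with voom, 0 with FPKM plus 0.1, 0 with FPKM plus 1 and 0 with the replicate block, and 0 to 8 with 1 library left out. For the feeding main effect it was 877, but 2304 with DESeq2, 543 with FPKM plus 0.1 and 519 with the replicate block, and 175 to 1448 with 1 library left out. For the genotype main effect it was 3, but 68 with DESeq2, 13 with no filter, 1 with voom and 0 with FPKM plus 1, and 0 to 8 with 1 library left out.

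Of 70 member values, 37 kept their direction in every alternative; none of those that turned was called. For LKO-ALD against LKO-NC, the sign turned for Hamp (0.029 with the replicate block). For FLOX-ALD against FLOX-NC, the sign turned for Fth1 (-0.038 with FPKM plus 0.1 and -0.038 with FPKM plus 1). For LKO-NC against FLOX-NC, the sign turned for Hamp2 (-0.0027 with no filter and -0.014 with voom) and Tfr2 (0.032 with upper-quartile scaling, 0.085 with FPKM plus 0.1 and 0.084 with FPKM plus 1). For LKO-ALD against FLOX-ALD, the sign turned for Fth1 (0.096 with voom, 0.22 with FPKM plus 0.1 and 0.22 with FPKM plus 1). For the interaction of feeding and genotype, the sign turned for Trf (0.013 with voom, 0.078 with FPKM plus 0.1 and 0.078 with FPKM plus 1) and Slc40a1 (-0.26 with the replicate block). For the feeding main effect, the sign turned for Hamp2 (-0.47 with voom, -0.54 with FPKM plus 0.1, -0.50 with FPKM plus 1 and -0.59 with the replicate block) and Ftl1 (-0.0043 with FPKM plus 0.1, -0.0043 with FPKM plus 1 and -0.011 with the replicate block). For the genotype main effect, the sign turned for Bmp6 (-0.072 with voom).

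With 1 library left out at a time, the log2 fold changes whose sign turned had these ranges. For LKO-ALD against LKO-NC these were Hamp -0.92 to 0.39, Trf -0.40 to 0.14, Ftl1 -0.19 to 0.11 and Slc40a1 -0.57 to 0.23. For FLOX-ALD against FLOX-NC these were Hamp2 -0.95 to 2.40, Id1 -0.64 to 0.97, Tfr2 -0.13 to 0.10, Trf -0.50 to 0.17, Fth1 -0.062 to 0.68 and Ftl1 -0.21 to 0.41. For LKO-NC against FLOX-NC these were Hamp -0.83 to 0.23, Hamp2 -0.59 to 0.43, Bmp6 -2.13 to 0.19, Tfrc -0.31 to 0.42, Tfr2 -0.14 to 0.059, Fth1 -0.55 to 0.090 and Ftl1 -0.12 to 0.16. For LKO-ALD against FLOX-ALD these were Fth1 -0.36 to 0.37, Ftl1 -0.42 to 0.18 and Slc40a1 -0.61 to 0.18. For the interaction of feeding and genotype these were Trf -0.33 to 0.34, Fth1 -0.17 to 0.56, Ftl1 -0.46 to 0.14 and Slc40a1 -0.15 to 0.65. For the feeding main effect these were Hamp2 -1.20 to 0.49, Bmp6 -0.18 to 1.0005, Trf -0.33 to 0.041 and Ftl1 -0.14 to 0.18. For the genotype main effect these were Hamp -0.10 to 0.58, Bmp6 -0.75 to 0.41, Id1 -0.73 to 0.16, Fth1 -0.29 to 0.092 and Ftl1 -0.19 to 0.11.

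Whether the numbers in the sample titles pair the samples was left undecided. With each group's mean subtracted, NIAAA and control libraries of the same title number had correlations of 0.0778, -0.0244 and -0.0362 in FLOX livers. In LKO livers these were -0.0481 and -0.0505. With only 2 LKO-NC libraries, the values of an LKO-ALD library with the 2 are equal with opposite sign, so they cannot decide it. The replicate block, set by these title numbers, called 519 genes for feeding and none of the 10. With 2 or 3 libraries a group, 95% intervals of Hamp spanned over 2 log2 units. The causes of these changes were not tested.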
